A study of Mus musculus with 4 samples.

Results

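The members described here are the 62 autosomal protein-coding genes whose symbols place them in the ATP-binding cassette families (Abca to Abcg) or among the organic anion transporting polypeptides (Slco). They were chosen by symbol from 20665 autosomal protein-coding genes of the GRCm38 RefSeq table. The signal was propionylation of lysine 23 on histone H3 (H3K23pr), mapped by chromatin immunoprecipitation sequencing (ChIP-seq) in liver of male C57BL/6 mice. RPN11 flox/flox mice gave the WT library, and mice lacking RPN11 in hepatocytes gave the KO library. Each genotype had 1 immunoprecipitate (IP) and 1 input. The Cre line, the age and diet of the mice and the number of mice per library are not given in the sources used here, and liver cells other than hepatocytes keep the gene in the KO. Psmd14 encodes RPN11, which removes ubiquitin chains from substrates at the proteasome, and the study is about fatty liver disease.

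ABC proteins use ATP to move lipids, bile salts, conjugates and drugs across membranes, and Slco proteins carry organic anions into cells. In the hepatocyte the ABC exporters of the canalicular membrane secrete bile, while Slco carriers and other ABC proteins of the basolateral membrane exchange solutes with blood. Some members act elsewhere: in peroxisomes, mitochondria or lysosomes, as soluble factors of translation, or in organs such as retina, skin and testis. The members were therefore grouped as 8 canalicular, 8 basolateral, 7 organelle, 4 soluble and 19 non-liver genes, the last being those best known from other organs, and 16 other genes.

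A peak here is a narrow interval called by MACS2 in 1 library, and its height is the number of IP fragments over its summit. A peak was given to a gene when it overlapped the gene or the 2 kb on either side, called the gene window. The WT list held 54397 peaks from 13615838 IP fragments and the KO list 41907 from 15468265. With 1 library per genotype there is no replicate check and no test of genotype. Intervals are exact 95% intervals that cover counting error only and treat peaks as independent, although peaks of 1 gene can lie close together. Psmd14, the targeted gene, held 7 WT and 10 KO peaks of at most 6 and 7 fragments, which does not check the knockout.

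Promoter sequences from RefSeq (GRCm38.p6) are shown for Abcg2, the member with the most KO peaks, and Abcb4, the member with the WT peak closest upstream of a start site. Abcg2 exports sulfated conjugates, urate and drugs, and Abcb4 moves phosphatidylcholine into bile. Each line gives the 250 bases before a listed start site, 5′ to 3′ on the plus strand, at chr5:8893471-8893720 for Abcb4 and at chr6:58584283-58584532, chr6:58596422-58596671 and chr6:58640296-58640545 for the Abcg2 sites in order. Capitals mark matches, on either strand, to the TATA box letters TATAAA, to the CAAT box letters CCAAT or to the GC box letters GGGCGG, where touching or overlapping matches run together.
Abcb4: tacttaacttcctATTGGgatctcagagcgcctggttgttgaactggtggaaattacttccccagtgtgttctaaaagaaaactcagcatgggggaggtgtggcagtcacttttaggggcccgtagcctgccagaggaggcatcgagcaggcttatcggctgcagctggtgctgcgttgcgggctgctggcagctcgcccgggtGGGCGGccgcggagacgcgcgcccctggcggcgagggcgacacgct
Abcg2 site 1: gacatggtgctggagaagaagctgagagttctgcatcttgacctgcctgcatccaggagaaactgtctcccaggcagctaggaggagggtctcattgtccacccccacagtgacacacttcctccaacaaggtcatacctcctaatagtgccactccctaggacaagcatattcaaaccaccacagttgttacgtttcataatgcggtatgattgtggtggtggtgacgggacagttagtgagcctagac
Abcg2 site 2: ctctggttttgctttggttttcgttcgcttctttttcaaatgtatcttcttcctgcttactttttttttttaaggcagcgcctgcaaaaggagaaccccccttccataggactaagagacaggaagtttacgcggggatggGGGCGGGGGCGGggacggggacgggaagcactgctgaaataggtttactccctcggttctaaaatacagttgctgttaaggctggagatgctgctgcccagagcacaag
Abcg2 site 3: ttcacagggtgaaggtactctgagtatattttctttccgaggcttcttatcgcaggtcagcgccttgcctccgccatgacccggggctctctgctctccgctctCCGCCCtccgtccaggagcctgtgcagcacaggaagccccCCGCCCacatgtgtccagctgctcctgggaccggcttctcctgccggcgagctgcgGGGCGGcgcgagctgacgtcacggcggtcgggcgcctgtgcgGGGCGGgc
The Abcb4 stretch held a CCAAT match and a GGGCGG match. The stretch of Abcg2 site 1, with 51.2% G or C and 3 CpG, held none of the motifs, whereas that of site 3, with 67.6% G or C and 23 CpG, held GGGCGG matches. Of 20085 promoters of the table, 11.7% held TATAAA, 35.3% CCAAT and 43.4% GGGCGG in this stretch.

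No peak overlapped any of the 61 promoter entries found for 50 of the members. Within 2 kb of a listed start site, 5 of 50 members had a WT peak, against 8.60% of all genes with an entry, and 4 had a KO peak, against 4.73%. The WT peak of Abcb4 (chromosome 5, 8893177 to 8893276) had 5 fragments and its midpoint lay at -494 bp, upstream of the site. At Abcg2, WT peaks of 4 and 7 fragments lay at -862 bp and 2010 bp from site 1, upstream and downstream of it. KO peaks of 6 and 8 fragments lay 1292 bp downstream of site 2 and 1444 bp downstream of site 3. The other WT peaks near start sites belonged to Abca12, Abca9 and Abcc10, and the other KO peaks to Slco1a1, Abcd3 and Abca8b. These counts are small, and the members' shares, 10.0% (3.33 to 21.8) and 8.0% (2.22 to 19.2), include the background shares. Whether a site was exonic or intronic was not analysed here.

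The first comparison asked how often these genes carried a called peak. A WT peak was present over 45 of 62 members, against 43.1% of all genes, and a KO peak over 35, against 30.5%. Members are long, with a median window of 68.8 kb against 21.5 kb for all genes, and longer windows held more peaks. Across the 62 members the Spearman correlation of window length and peak number was 0.75 in WT and 0.57 in KO, where the points share the same libraries. In genes whose windows lie in the middle 50% of the members' lengths (39.5 to 102.2 kb), 74.1% had a WT peak and 53.8% a KO peak. Of the 30 members in that range, 23 and 19 did, so the family as a whole was near genes of its own length.

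Counted per length, the family also lay near other genes. The member windows held 136 WT peaks, 26.3 per Mb, against 23.7 per Mb over all other gene windows, a ratio of 1.11 (0.93 to 1.31). They held 107 KO peaks, 20.7 per Mb against 18.1, a ratio of 1.14 (0.938 to 1.38). Against 4.719 Mb of sequence flanking the 5.163 Mb of member windows, the ratios were 0.994 (0.774 to 1.28) in WT and 0.959 (0.724 to 1.27) in KO. The KO to WT ratio of peak numbers was 0.787 (0.605 to 1.02) for members and 0.763 for all genes. A cut at caller q of 0.05 or smaller admitted lower peaks in KO than in WT, as described below for Abcg2. With it, the KO to WT ratio turned to 2.11 (1.19 to 3.85) for members and 2.05 for all genes. With all peaks but without Abcg2 it was 0.727 (0.55 to 0.956) for members, an interval that excludes 1 but includes the 0.763 of all genes. Divided by the ratio of other genes, it was then 0.953 (0.721 to 1.25).

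Within the family, called density differed between roles, which were set with earlier results of these data known, so the ratios are a description. Canalicular genes held 28 WT peaks, 42.8 per Mb (28.5 to 61.9), and 31 KO peaks, 47.4 per Mb (32.2 to 67.3). Non-liver genes held 55 WT peaks, 24.7 per Mb (18.6 to 32.2), and 30 KO peaks, 13.5 per Mb (9.09 to 19.2). The density of canalicular genes was thus 1.73 times that of non-liver genes in WT (1.06 to 2.78) and 3.52 times in KO (2.06 to 6.02). Without Abcg2 the ratio was 1.49 in WT (0.848 to 2.53), an interval that includes 1, and 2.33 in KO (1.2 to 4.36). The WT interval also included 1 under 5 of 6 other settings for peaks or windows, whereas the KO interval excluded 1 under each of the 6. All 6 settings kept Abcg2, which held 14 of the 31 canalicular KO peaks, and they were not recomputed without it. Of these 14 peaks, 7 lay within 6.55 kb, while the intervals treat them as independent. Against all other genes, canalicular density was 1.80 times higher in WT (1.2 to 2.61) and 2.62 times in KO (1.78 to 3.72), and without Abcg2 it was 1.55 times (0.949 to 2.40) and 1.73 times (1.01 to 2.77).

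Basolateral genes lay lower, with 15 WT and 13 KO peaks at 21.6 and 18.7 per Mb, close to all genes in both libraries. Canalicular density was 1.98 times the basolateral in WT (1.02 to 3.99) and 2.53 times in KO (1.29 to 5.27). Without Abcg2 these ratios were 1.71 (0.831 to 3.58) and 1.67 (0.766 to 3.75), and both intervals include 1. Basolateral and non-liver genes could not be separated, with ratios of 0.875 (0.459 to 1.57) in WT and 1.39 (0.666 to 2.75) in KO. The 7 organelle genes held 4 WT and 8 KO peaks, of which 3 and 7 were in Abcd3, and the 4 soluble genes held 1 and 2.

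**Figure D1:**
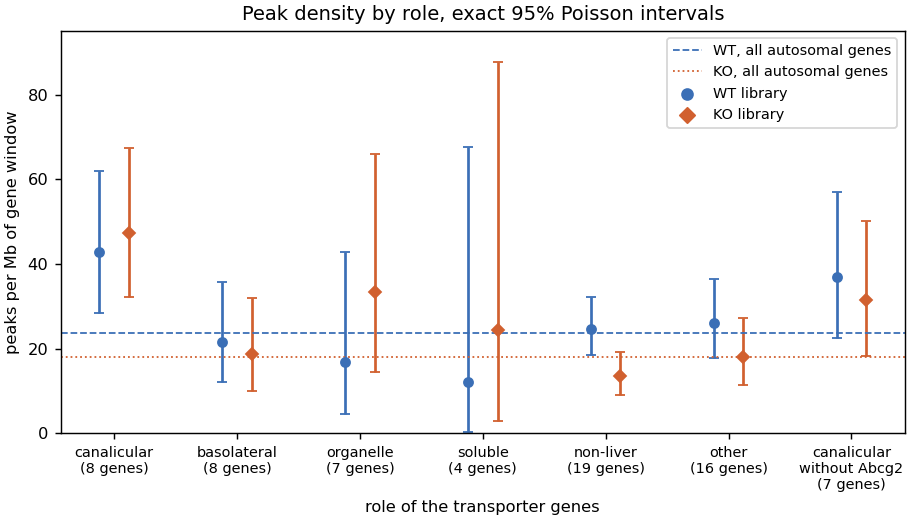
Peaks per Mb of gene window (vertical axis) by role of the transporter genes (horizontal axis) in the WT library (circles) and the KO library (diamonds), with exact 95% Poisson intervals. Dashed and dotted lines mark all autosomal genes, 23.8 per Mb in WT and 18.1 in KO. Canalicular genes, at 42.8 and 47.4 per Mb, lie above both lines, and non-liver genes are at 24.7 and 13.5.

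The KO to WT ratio also varied by role, and whether the variation passed counting error depended on the setting. The KO to WT ratio of peak numbers was 1.11 (0.643 to 1.92) for canalicular, 0.867 (0.38 to 1.95) for basolateral and 0.545 (0.337 to 0.866) for non-liver genes. Each of these intervals includes the ratio of all genes, 0.763. The canalicular ratio was 2.02 times the non-liver ratio, with an interval of 0.976 to 4.22 that includes 1, and 1.55 times without Abcg2 (0.657 to 3.66). With all members, the interval excluded 1 with caller q of 0.05 or smaller, where canalicular genes had 4 WT and 15 KO peaks and non-liver genes 9 and 6, a ratio of 5.31 (1.01 to 34.0). It also excluded 1 with the strongest 20000 peaks of each list, at 3.74 (1.2 to 12.7), without flanks and with flanks of 10 kb. The cut at 20000 fell among tied peaks, and a single random draw kept 3383 of 10422 in WT and 7946 of 9543 in KO. All these settings kept Abcg2, which held 10 of the 15 canalicular KO peaks by q. Without Abcg2, canalicular genes had 3 WT and 5 KO peaks by q, and the ratio was not recomputed there. More WT than KO peaks were found over 31 members, against 30.6% of all genes, and more KO than WT peaks over 12, against 14.6%. Among 19 non-liver genes 14 had more in WT and 2 more in KO, namely Abca12 and Abcb5. A WT peak without a KO peak was present at 12 members (20.8% of all genes) and the reverse at 2 (8.06%), the peroxisomal transporter gene Abcd2 and the ribosome recycling factor gene Abce1. Peaks in both lists were found over 33 members (22.4% of all genes). These shares of all genes are over genes of all lengths, and longer windows held more peaks. Median windows were 21.5 kb for all genes, 68.8 kb for members and 99.9 kb for non-liver genes. Shares among genes of like length were not computed for these counts.

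**Figure D2:**
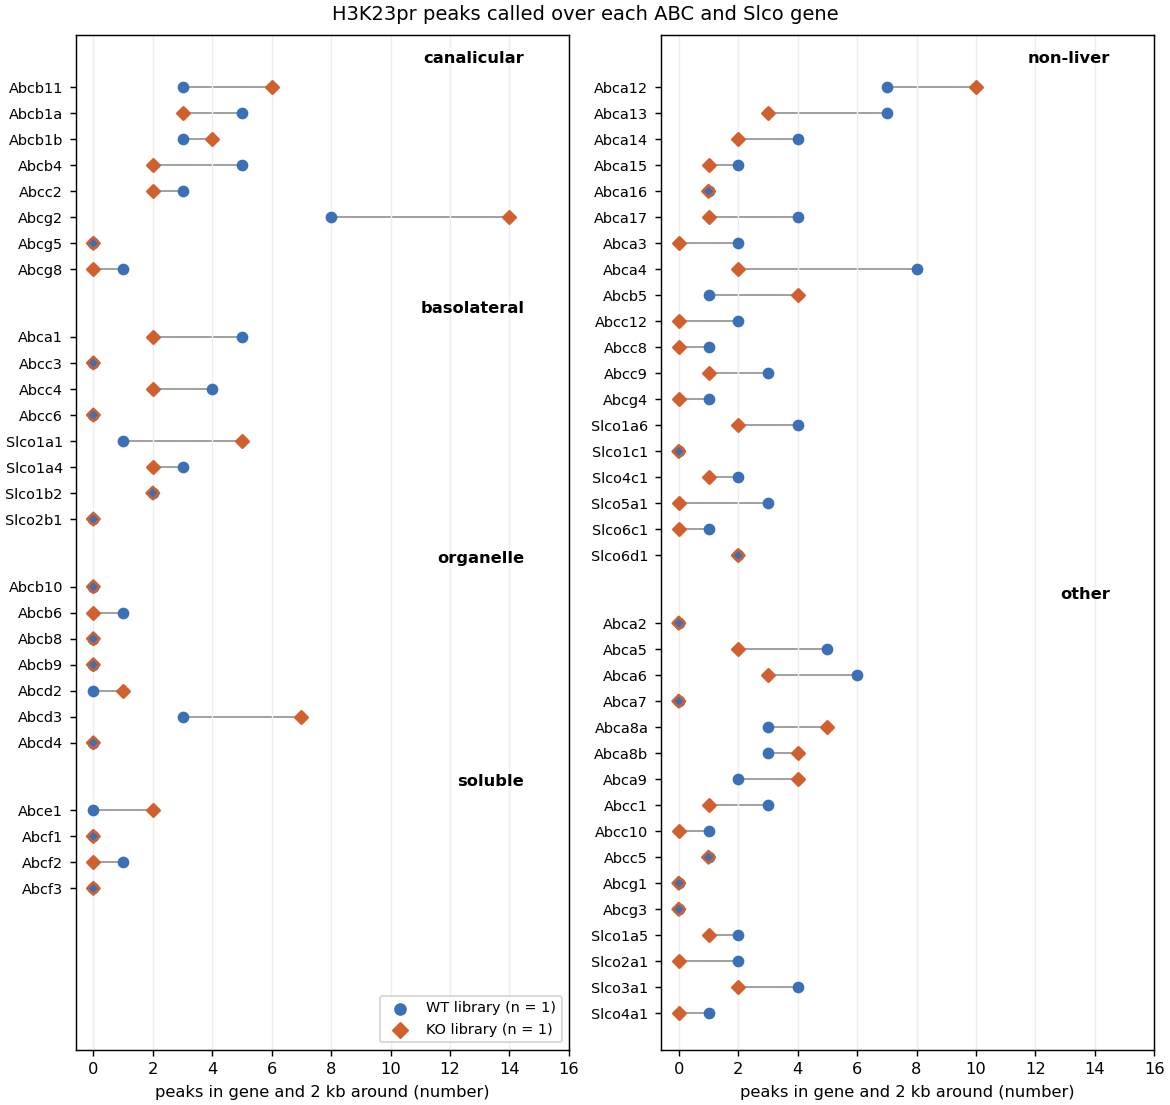
Number of peaks (horizontal axis) in the window of each of the 62 genes (rows, grouped by role) in the WT library (circles) and the KO library (diamonds, open where both numbers are equal), joined by a line. Abcg2 stands farthest right with 8 WT and 14 KO peaks, and most non-liver genes have the circle to the right of the diamond.

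Abcg2 (chromosome 6, 58584491 to 58692451) was the member with the most peaks. Its 8 WT peaks had 7, 6, 5, 5, 4, 4, 4 and 4 fragments. Its 14 KO peaks had 9, 9, 8, 8, 8, 6, 6, 6, 6, 6, 5, 5, 4 and 4 fragments. Heights are given as deposited and are not comparable between the libraries, whose mean fragment sizes differed (97 bp in WT and 71 bp in KO), and the part of that difference in peak numbers was not tested. Of 563 genes with windows within 10% of its length, 12 had at least 8 WT peaks and 0 had at least 14 KO peaks, while the medians were 3 and 2. These counts are a description, since Abcg2 stood out by its number of peaks.

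In the KO list, 7 of the 14 Abcg2 peaks lay within 6.55 kb, from 58605529 to 58612079, 21.1 to 27.5 kb from the first start site. They had 6 to 9 fragments, and the WT list had no peak between 20 and 30 kb from that site. Over all autosomes 15 such stretches of 7 peaks in no more than 6.55 kb were found in KO, 9 of them touching a protein-coding gene, and 0 in WT. The remaining KO peaks formed a looser group of 5 from 57.5 to 71.2 kb and 2 nearer the start. The nearest WT and KO peaks, of 4 and 6 fragments, were 3718 bp apart. Density in Abcg2 was 4.67 times (1.68 to 14.8) that of flanks of 1 window length on each side in KO. In WT it was 2.67 times (0.811 to 9.32), an interval that includes 1. Both ratios are a description, since the gene was singled out for its number of peaks. By the caller's q, deposited by the authors for each peak, 10 of the 14 KO peaks and 1 of the 8 WT peaks were at 0.05 or smaller. Over all gene windows 29.0% of KO and 10.8% of WT peaks were. The file headers state that q was not calculated, although the column holds values, so how these q values were made is unknown, and all counts by q share this limit. At the commonest local background, 0.568 in KO and 0.692 in WT, a peak of 6 fragments had −log10 q of 1.38 and 1.07. It thus passed the cut of 0.05 in KO but not in WT, so counts by q compare the lists at unlike heights.

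**Figure D3:**
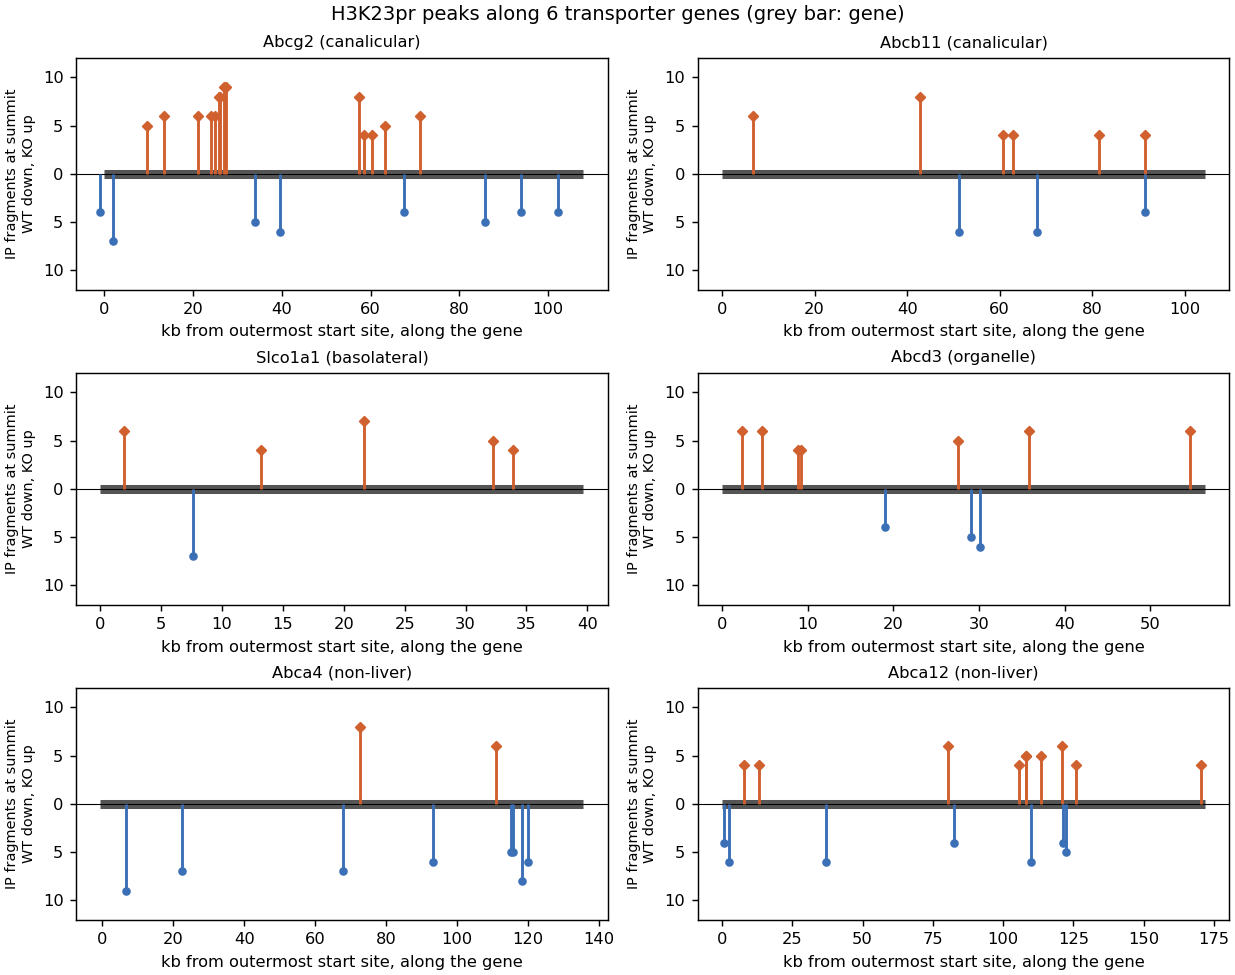
Peaks along 6 of the genes, with distance from the outermost start site in kb (horizontal axis) and IP fragments at the summit (vertical axis), KO upwards and WT downwards. The grey bar is the gene. The 7 KO peaks of 6 to 9 fragments at 21.1 to 27.5 kb in Abcg2 have no WT peak beneath them.

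The bile salt export pump gene Abcb11 (chromosome 2, 69238282 to 69342616) had 3 WT peaks of 6, 6 and 4 fragments and 6 KO peaks of 8, 6, 4, 4, 4 and 4. Its KO number was reached by 9.14% of 591 genes of like length and its WT number by 50.4%. The flanks of Abcb11 were about as dense in KO, at 50.8 per Mb against 55.4 in the gene window, a ratio of 1.09 (0.331 to 3.22). A single site was called in both libraries with 4 fragments each. The WT peak spanned 69251277 to 69251414 and the KO peak 69251240 to 69251328. Abcb1a and Abcb1b, neighbours on chromosome 5 that encode the drug exporter P-glycoprotein, showed no common direction. Abcb1a had 5 WT peaks of 4 or 5 fragments and 3 KO peaks of 4 or 5, and Abcb1b had 3 WT peaks of 4 fragments and 4 KO peaks of 4 to 6. These genes are close copies of each other, and how the aligner's multiple hits were treated is not given in the sources used here. One WT peak of Abcb1a also touched the gene Rundc3b.

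Abcb4 (chromosome 5, 8893614 to 8959226) carried the highest peak of all members. Its KO peak at 8944770 to 8945138 had 11 fragments, a fold of 7.65 over background and rank 90 of the KO list by caller p. It overlapped a WT peak of 5 fragments and fold 3.38 at 8944870 to 8944973, 51.2 kb from the start site. Scaled to IP fragments, KO had 1.94 times the WT height there, with an interval of 0.62 to 7.11 that includes 1, and this scaling leaves the difference in fragment size uncorrected. A further WT peak of 7 fragments lay 476 bp from the same KO peak. In number Abcb4 went the other way, with 5 WT peaks of 7, 7, 5, 5 and 5 fragments and 2 KO peaks of 11 and 5. The Abcb4 and Abcb11 sites were the only overlaps among members, 2 of 136 WT peaks against 0.844% over all gene windows, and 2 of 107 KO peaks against 1.09%.

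Abcc2, which exports bilirubin and drug conjugates, had the highest WT peak of the family. Its 3 WT peaks had 10, 8 and 6 fragments and its 2 KO peaks 8 and 4. The WT peak of 10 fragments (chromosome 19, 43831874 to 43832040) had a fold of 4.09 over a local background of 1.69 fragments, where most WT member peaks had 0.692. The Abcc2 KO peak of 8 fragments lay 3286 bp from it. Abcg5 and Abcg8, neighbours that together export sterols, had almost none: Abcg5 had 0 in both lists and Abcg8 had 1 WT peak of 4 fragments.

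Among basolateral genes the uptake carriers of the Slco1 cluster on chromosome 6 differed from each other. Slco1a1 had 1 WT peak of 7 fragments and 5 KO peaks of 7, 6, 5, 4 and 4. Its KO number was reached by 1.46% of 1093 genes of like length, but its flanks were also dense, and the ratio to them was 1.67 (0.402 to 6.55). Slco1a4 had 3 WT peaks of 7, 6 and 5 fragments and 2 KO peaks of 6 and 4, and Slco1b2 had 2 of 6 and 5 in WT and 2 of 5 and 4 in KO. The non-liver and other members of the cluster, Slco1a6 and Slco1a5, had more in WT, with 4 against 2 and 2 against 1, and Slco1c1, known from brain vessels, had none. Over the 6 genes both lists held 12 peaks.

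Abca1, which loads cholesterol onto apolipoprotein A-I, had 5 WT peaks of 6, 5, 4, 4 and 4 fragments and 2 KO peaks of 8 and 6. Abcc4, an exporter of conjugates and bile salts into blood, had 4 WT peaks of 7, 5, 5 and 4 and 2 KO peaks of 7 each. Abcc3, Abcc6 and Slco2b1 had no peak in either list. Over the 10 Abcc genes the lists held 18 WT and 7 KO peaks, a KO to WT ratio of 0.389, and its interval (0.137 to 0.976) includes the ratio of all genes, 0.763.

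The organelle gene Abcd3 encodes a peroxisomal importer of fatty acyl-CoA and bile acid intermediates. It had 3 WT peaks of 6, 5 and 4 fragments and 7 KO peaks of 6, 6, 6, 6, 5, 4 and 4. Its KO number was reached by 4 of 860 genes of like length, 0.465%, and its KO density was 3.50 times that of its flanks, with an interval (0.89 to 16.3) that includes 1. Abcd3 was named for its number of peaks, so these values are a description. Abcb6, a porphyrin transporter gene, had 1 WT peak of 9 fragments and no KO peak, and this peak also lay within 2 kb of Zfand2b. Of the soluble genes, Abce1 had KO peaks of 6 and 5 fragments and Abcf2 a WT peak of 5.

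Non-liver genes included the largest shortfall in KO. Abca4, which clears retinal lipid in photoreceptors, had 8 WT peaks of 9, 8, 7, 7, 6, 6, 5 and 5 fragments and 2 KO peaks of 8 and 6. Its WT number was reached by 5.96% of 403 genes of like length and its KO number by 58.3%. The flanks of Abca4 were also dense in WT, at 46.4 per Mb against 57.1 in the gene window, a ratio of 1.23 (0.442 to 3.2). In KO that ratio was 0.444 (0.0467 to 2.15). Abca4 was also named for its number of peaks, so these shares and ratios are a description. Abca13 had 7 WT peaks of 4 to 7 fragments and 3 KO peaks of 4 to 6, and Abca14, known from testis, had 4 of 4 to 8 and 2 of 4 and 5. Abca12, the lipid transporter of the skin barrier, went the other way, with 7 WT peaks and 10 KO peaks of 4 to 6 fragments in both lists. At least 3 more KO than WT peaks were found at 6 members, against 2.76% of all genes: Abcg2, Abcb11, Slco1a1, Abcd3, Abca12 and Abcb5. At least 3 more WT than KO peaks were found at 8 members, against 6.30%. These 8 were Abcb4, Abca1, Abca4, Abca5, Abca6, Abca13, Abca17 and Slco5a1. Both background shares are over genes of all lengths, and longer windows held more peaks.

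The Abca cluster on chromosome 11 was densely called in both lists, against 26.3 and 20.7 per Mb over all members. Abca5, Abca6, Abca8a, Abca8b and Abca9, lipid transporter genes related to Abca1, held 19 WT peaks, 51.6 per Mb (31.1 to 80.6), and 18 KO peaks, 48.9 per Mb (29.0 to 77.3). A density this high was thus not particular to canalicular genes, which had 42.8 per Mb in WT and 47.4 in KO. The 16 other genes, which include this cluster, held 26.0 per Mb in WT and 18.1 in KO. The limit on multiple hits stated for Abcb1a and Abcb1b also applies to any close copies in this and the other gene clusters. Abca5 and Abca6 had more in WT, with 5 against 2 and 6 against 3. Abca8a, Abca8b and Abca9 had more in KO, with 5 against 3, 4 against 3 and 4 against 2. The highest of these, a KO peak of 9 fragments in Abca9 at 110159885 to 110160011, had a fold of 6.38.

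The other 15 members had no peak in either list, with windows of 16.9 to 64.3 kb against a median of 80.1 kb for the 47 with a peak. Beside Abcg5, Abcc3, Abcc6, Slco2b1 and Slco1c1 these were Abcb8, Abcb9, Abcb10, Abcd4, Abcf1, Abcf3, Abca2, Abca7, Abcg1 and Abcg3. The other members not described singly had 1 to 4 WT peaks and 0 to 4 KO peaks, except Abcd2, with 0 WT peaks and 1 KO peak of 5 fragments.

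Peak heights were low throughout. Member peaks had 4 to 10 fragments in WT and 4 to 11 in KO, and the median was 5 in both, as over all genes. In WT, 7 of 136 member peaks had 8 or more fragments, 5.15% (2.09 to 10.3), against 4.80% over all gene windows. In KO, 12 of 107 did, 11.2% (5.93 to 18.8), against 4.07%. Of these 12, 5 were in Abcg2 and 3 in other canalicular genes, and without Abcg2 the share was 7.53%, 7 of 93 peaks. Counted by gene, 5 members had a WT peak of 8 or more fragments, against 5.36% of all genes, and 8 had such a KO peak, against 3.13%. A caller q of 0.05 or smaller was reached by a WT peak at 15 members, against 10.6% of all genes, and by a KO peak at 20, against 15.0%. These shares by gene are over genes of all lengths, and longer windows held more peaks.

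**Figure D4:**
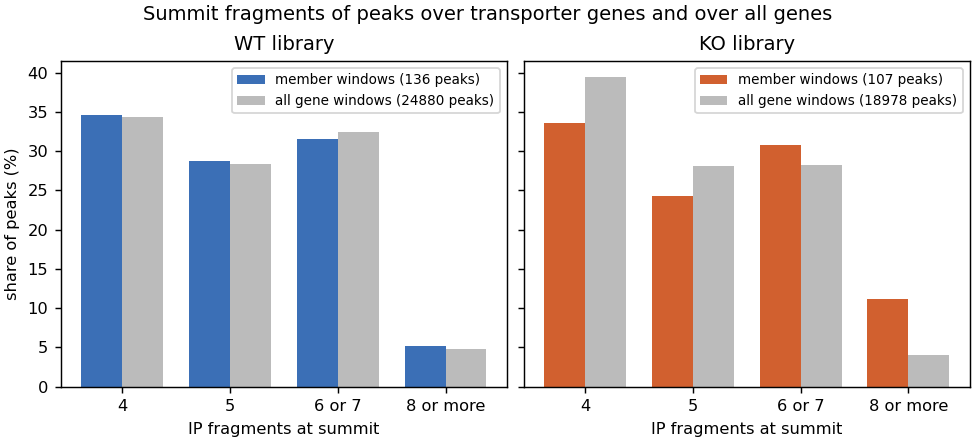
Share of peaks (vertical axis, %) by number of IP fragments at the summit (horizontal axis) for peaks over the 62 transporter genes (coloured) and over all autosomal genes (grey), WT left and KO right. The groups match closely in WT, while 11.2% of KO member peaks against 4.07% of all have 8 or more fragments.

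Lists of other genes of the pathway were counted in the same way, to be read against the 43.1% of all genes with a WT peak and 30.5% with a KO peak. Of 12 other carriers, 5 had a WT peak and 4 a KO peak, which is 41.7% and 33.3%, with 16 and 6 peaks in all. Atp8b1, a phospholipid flippase of the canaliculus, had 8 WT peaks of up to 6 fragments and 1 KO peak of 4. The copper pump gene Atp7b had 4 and 3, and the chloride channel gene Cftr 2 and 1. Of 12 regulators of transporter genes, 5 had a WT peak and 5 a KO peak, 41.7% each, with 7 and 14 peaks. The bile acid receptor gene Nr1h4 had 3 WT peaks of up to 8 fragments and 7 KO peaks of up to 12. Nfe2l2, a regulator of the oxidative stress response, had 0 and 2, and the hepatocyte factor gene Hnf4a 1 and 2. Of 10 genes of canalicular trafficking and scaffolds, 6 had a WT peak and 5 a KO peak, with 21 and 12 peaks. The motor gene Myo5b had 9 and 7, the scaffold gene Pdzk1 had 5 of up to 11 fragments and 0, and the membrane linker gene Rdx had 1 and 2. The KO to WT ratios of these lists were 0.375 (0.12 to 1.01), 2.00 (0.755 to 5.86) and 0.571 (0.256 to 1.22).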

How the data were processed

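ChIP-seq of H3K23pr was analysed from 2 deposited peak lists, 1 IP library per genotype. The submitters' processing notes name cutadapt 1.9.3, Bowtie2 2.2.4 and the mm10 build. Peak calling ran separately for each IP against its own input with MACS2 2.1.1.20160309, per the file headers, at a p cutoff of 0.001 and with at most 2 fragments sharing ends. After this filter WT had 13615838 IP and 9385834 input fragments and KO 15468265 and 10000823, per the file headers. Fragments averaged 97 bp for WT but 71 bp for KO, so peak length and height are not directly comparable between the libraries, and peak number may differ for the same reason. The pileup deposited by the authors is a signal, the number of IP fragments over the summit. Fold is the deposited ratio of pileup to local background, 1 being added to each. The p and q values are deposited as −log10 values per peak. The headers state that q was not calculated, yet the deposited column holds values. These caller values are the authors' and served here only to describe, order or select peaks within a list.

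Gene positions were read from RefSeq annotation of GRCm38.p6 (the same assembly as mm10), and start sites from a promoter table, which held 50 of 62 members. Peaks were counted in merged gene windows with Python 3.11.15 and scipy 1.17.1. Shares have Clopper-Pearson intervals, counts Poisson intervals and ratios exact conditional intervals. The interval and overlap code was tested on simulated data. Members, roles and lists were chosen with earlier results of these data known. Named were all canalicular and basolateral genes, those with most peaks in each other role (4 non-liver, 2 organelle, 2 soluble, 4 other), those with overlapping peaks, those under the 5 highest peaks of each list, and 3 genes per pathway list. Abcb5, Abca17, Abcd2 and other members outside this rule were named after their values were seen. Alternatives changed the peak threshold, the window, the overlap and the number of peaks kept.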

Additional observations from a re-analysis of the deposited data

How the results depend on the processing

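Of 80 values recomputed, 50 stayed within the interval or within 1.5 times of the reported count, and 17 moved. A further 6 lost an interval that excluded 1, 7 gained one, and 0 with such an interval changed side. Only the canalicular to non-liver density ratios had such an interval in the report, so only they could be counted as changing side. The KO to WT ratio of member peaks, 0.787 in the report, rose above 1 with q peaks and was counted among the 7. Keeping only peaks with a caller q of 0.05 or smaller left 19 WT and 40 KO member peaks, 15 and 20 members with a peak, and 0 overlapping sites. Member to other-gene density ratios became 1.44 (0.865 to 2.25) in WT and 1.48 (1.05 to 2.01) in KO, and the canalicular to non-liver ratio in KO 8.51 (3.12 to 26.8). Of the 15 canalicular KO peaks behind that last ratio, 10 were in Abcg2. Keeping the strongest 20000 peaks of each list, ties drawn at random, left 53 WT and 60 KO peaks, 29 members with a WT peak and 0 overlapping sites. The draw was made a single time and kept 3383 of 10422 tied WT peaks but 7946 of 9543 tied KO peaks. Peaks of 5 or more fragments numbered 89 and 71, with 1 overlapping site. Within 2 kb of either gene end, 15 members had a WT peak, against 14.7% of all genes, and 8 a KO peak, against 8.05%.

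The canalicular to non-liver ratio in WT, 1.73 in the report, had an interval including 1 with q peaks (1.51), 5 or more fragments (1.56), no flanks (1.59), 10 kb flanks (1.47), the strongest 20000 (1.01) and without Abcg2 (1.49). The ratio of the roles' KO to WT ratios, 2.02 in the report, excluded 1 with q peaks (5.31), no flanks (2.23), 10 kb flanks (2.13) and the strongest 20000 (3.74). Abcg2 was kept in each of these settings. The KO to WT ratio of member peaks, 0.787 in the report, was 2.11 with q peaks, 1.13 with the strongest 20000 and 0.727 without Abcg2. Over all genes it was 0.763 in the report, 2.05 with q peaks and 0.967 with the strongest 20000. As described above, the q cut admitted lower peaks in KO than in WT, and the cut at 20000 split tied peaks unevenly. The causes of these shifts were not tested. The alternatives for ratios between roles and those without Abcg2 were chosen after seeing the data. No paired analysis was possible because each genotype has 1 library. Most peaks rest on 4 to 7 fragments, which limits every value for a single gene.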

Other observations

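Peaks over marker genes of liver cells were counted in the same way, and they do not measure expression, so the tissue label was not checked by them. The 6 hepatocyte markers held 4 WT and 16 KO peaks, a ratio of 4.00 (1.29 to 16.4), and 10 of the KO peaks were in Cps1, which encodes the first enzyme of the urea cycle and had 1 WT peak. Markers of cholangiocytes held 4 and 2 peaks, of Kupffer cells 6 and 2, of endothelial cells 11 and 7 and of stellate cells 16 and 12. Kupffer cells were represented by 5 autosomal genes, since Vsig4 is not autosomal.

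The 15 KO stretches as dense as that in Abcg2 included the Ugt1a locus, whose enzymes attach glucuronic acid to bilirubin and drugs, and the immune gene Sp140.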
